A study of Mus musculus with 6 samples.

Results

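The expression of 37 genes of natural killer (NK) cells and cytotoxic lymphocytes was examined in RNA from mouse splenic dendritic cells. Members were found by gene symbol in the deposited read counts, which list 23420 genes, and comprise lectin-like and immunoglobulin-type NK receptors, granule proteins, secreted effectors, transcription factors, cytokine receptors and signalling proteins. All 37 symbols were present, 35 had enough reads to be tested among 14388 genes, and Klra4 and Klra8 had 0 reads in all 6 libraries. The libraries form 2 groups of 3, labelled TBK1-DKO and wild type (WT), both of strain C57BL/6 and from spleen. TBK1 is a kinase that links innate immune sensors to the induction of interferon genes. The sources used here do not say what DKO stands for, and give neither the alleles, a Cre driver, the sorting of the cells nor whether each library came from its own animal. The age is given as 8 weeks in one label and 10 weeks in another for the same samples.

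NK cells are innate lymphocytes that kill infected or transformed cells by releasing perforin and granzymes and that secrete interferon-gamma. Their activity is set by a balance of activating and inhibitory receptors, many of which are C-type lectin-like proteins encoded side by side in the NK gene complex. In the spleen, dendritic cells and NK cells stimulate each other through cytokines such as IL-12, IL-15 and IL-18, and the chemokine XCL1 from NK cells attracts type 1 conventional dendritic cells.

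Reads assigned to genes numbered 45018389 to 47349648 per TBK1-DKO library and 31077585 to 36145508 per WT library. Over genes, replicate libraries differed from each other by a chi-square of 2.47 to 38.3 per degree of freedom, with TBK1-DKO 2 and WT 1 farthest from the others of their group, and the main results were therefore also computed without these 2 libraries. Tbk1 itself was not lower under the TBK1-DKO label (82.3 ± 2.69 against 85.0 ± 5.08 CPM, SD, n = 3; log2 fold change -0.05, SE 0.06, edgeR adjusted p = 0.63), so the gene level does not check the label, and the groups are named by their labels. Defining transcripts of dendritic cells were abundant in both groups, with Cd74 at 6374 ± 585.1 and 6618 ± 501.7 CPM and Flt3 at 149 ± 3.25 and 148 ± 2.0 CPM. CPM are reads per 1000000 gene reads of a library after scaling by trimmed means (TMM). The labels do not say that the libraries are biological replicates, so p-values reflect only how far these libraries vary, and that variation may be technical.

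The NK and cytotoxic genes made up a small share of the RNA and were mostly lower under the TBK1-DKO label. Their reads came to 0.0804%, 0.0842% and 0.0811% of gene reads in TBK1-DKO libraries 1 to 3 and to 0.118%, 0.111% and 0.106% in WT libraries 1 to 3, 35830 to 40274 reads per library. Summed over all members, the level was 821 ± 21.9 CPM against 1118 ± 52.5 CPM (SD, n = 3), and the WT mean was 1.36 times the TBK1-DKO mean. Fewer lymphocytes in the preparation and less RNA of these genes per cell cannot be told apart in such bulk RNA.

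Of the 35 members tested, 28 fell, 0 rose and 7 did not pass the test at an adjusted p of 0.05 (edgeR quasi-likelihood F test, Benjamini-Hochberg over all genes). Over all 14388 genes, 9.9% fell and 13.7% rose, 23.6% in either direction. The median log2 fold change was -0.45 over the tested members and 0.00 over all genes tested, and single members ran from -1.05 to 0.41. In 29 members every TBK1-DKO library was below every WT library, which held for 19.5% of all genes tested. Gzmk was the 1 member with every TBK1-DKO library above every WT library (21.5% of all genes), and the groups overlapped for Klrg1, Prf1, Tbx21, Il18rap and Il12rb2. DESeq2 and limma-voom each found 28 members lower and 0 higher, and Gzmk was the 1 member higher at an unadjusted edgeR p under 0.05. With 1 library left out in turn, 21 to 28 members fell, the fewest without TBK1-DKO replicate 3. Without TBK1-DKO 2 and WT 1 together, 29 fell and 3 rose.

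**Figure D1:**
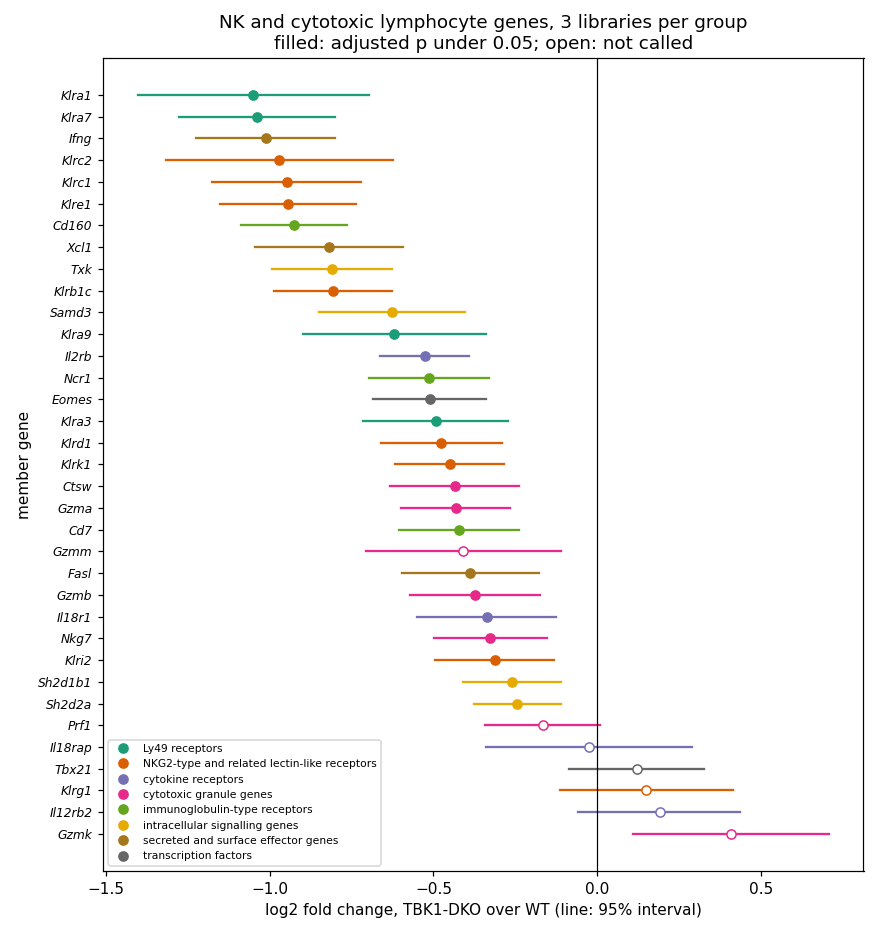
Log2 fold change of each tested member, TBK1-DKO over WT, with its 95% interval from the edgeR fit, ordered by size and coloured by role. Points lie between -1.05 and 0.41, filled points are the 28 members that passed an adjusted p of 0.05, and all of these lie to the left of 0.

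Promoters are shown because they are the regulatory sequences beside the start sites of these genes. Those printed are a selection of members that fell (Ncr1, Klrb1c, Cd160 and Xcl1) and the 1 member that did not overlap in the other direction (Gzmk). Sequences are from RefSeq (GRCm38.p6), 250 bases before to 50 bases after the annotated start, 5′ to 3′ along the gene. Capitals mark 2 short motifs searched on both strands, TGTGGT (Runx, also read as ACCACA) and GGTGTGA (T-box).
Ncr1 (chr7:4337465-4337764, plus strand): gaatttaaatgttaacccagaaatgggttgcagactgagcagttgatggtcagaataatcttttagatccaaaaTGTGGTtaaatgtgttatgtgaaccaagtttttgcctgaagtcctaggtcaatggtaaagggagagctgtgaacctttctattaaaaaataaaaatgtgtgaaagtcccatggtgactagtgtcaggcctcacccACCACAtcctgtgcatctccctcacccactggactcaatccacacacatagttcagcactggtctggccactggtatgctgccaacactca
Klrb1c (chr6:128788592-128788891, minus strand): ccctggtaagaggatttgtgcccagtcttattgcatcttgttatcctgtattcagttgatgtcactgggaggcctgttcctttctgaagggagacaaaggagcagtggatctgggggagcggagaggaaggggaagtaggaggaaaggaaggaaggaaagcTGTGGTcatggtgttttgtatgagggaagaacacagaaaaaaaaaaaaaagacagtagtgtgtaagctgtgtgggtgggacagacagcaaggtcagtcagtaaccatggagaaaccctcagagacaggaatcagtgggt
Cd160 (chr3:96829302-96829601, minus strand): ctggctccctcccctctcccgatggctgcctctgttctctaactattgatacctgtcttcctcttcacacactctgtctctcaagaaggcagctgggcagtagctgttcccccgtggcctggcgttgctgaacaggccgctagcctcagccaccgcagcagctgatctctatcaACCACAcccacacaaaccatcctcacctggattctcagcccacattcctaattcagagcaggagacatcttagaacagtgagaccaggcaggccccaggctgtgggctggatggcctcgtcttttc
Xcl1 (chr1:164935473-164935772, minus strand): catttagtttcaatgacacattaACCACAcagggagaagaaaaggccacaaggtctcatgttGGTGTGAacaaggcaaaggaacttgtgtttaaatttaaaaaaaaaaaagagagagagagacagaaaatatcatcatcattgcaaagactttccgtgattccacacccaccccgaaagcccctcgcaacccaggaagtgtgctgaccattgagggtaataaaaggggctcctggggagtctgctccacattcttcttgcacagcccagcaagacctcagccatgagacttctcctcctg
Gzmk (chr13:113180916-113181215, minus strand): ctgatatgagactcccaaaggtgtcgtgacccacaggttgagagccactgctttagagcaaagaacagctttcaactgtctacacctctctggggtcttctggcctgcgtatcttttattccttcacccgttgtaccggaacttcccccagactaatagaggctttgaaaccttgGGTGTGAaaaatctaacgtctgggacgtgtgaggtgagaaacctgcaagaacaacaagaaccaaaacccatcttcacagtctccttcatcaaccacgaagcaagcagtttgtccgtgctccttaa

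Promoters of 30 of the 37 members were in the RefSeq table. The Runx letters occurred in 16 of them (53.3%), among them those of Ncr1, Klrb1c, Klrk1, Klrc1, Gzma, Gzmb and Prf1, and in 4573 of all 27025 promoters of that length (16.9%). Of the 22 members with a promoter that fell, 13 held them (59.1%). The T-box letters occurred in 5 of the 30 (16.7%), those of Klra1, Gzmk, Nkg7, Samd3 and Xcl1, and in 3.96% of all promoters. Some members that fell, among them Ifng, Klra7, Eomes and Txk, held neither motif. These matches describe the letters in the window and were not tested as binding sites.

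Receptors of the NKG2 type and their lectin-like relatives fell together, 7 of 8, with a median log2 fold change of -0.64. Library values are given below in the order of the replicate numbers 1, 2 and 3. Klrb1c (ENSMUSG00000030325.16, chr6:128778485-128789215), which encodes the NK1.1 antigen used to define NK cells in this strain, stood at 24.2, 26.3 and 24.6 CPM under the TBK1-DKO label against 48.3, 43.6 and 39.5 CPM under WT. The groups did not overlap, with WT 1 highest, and the log2 fold change was -0.81 (SE 0.08, edgeR adjusted p = 6.8e-05). Klre1, the partner chain of the KLRI receptors, was at 12.5, 13.4 and 11.9 CPM against 27.4, 22.3 and 22.96 CPM, again without overlap (log2 fold change -0.94, SE 0.09, edgeR adjusted p = 6.4e-05). Every 50-base window of Klre1 transcripts (chr6:129577905-129585827) was unique to that gene, and 81.9% of those of Klrb1c, which shares sequence with Gm44511, Klrb1a and Klrb1b. The annotated gene Gm44511 also covers 15.4% of the exonic bases of Klrb1c.

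Klrd1 encodes CD94, the common partner of the inhibitory NKG2A chain (Klrc1) and the activating NKG2C chain (Klrc2). It had 38.1, 41.9 and 38.5 CPM against 61.8, 52.5 and 50.5 CPM, a log2 fold change of -0.48 (SE 0.08, edgeR adjusted p = 0.0022). The fold changes of both partner chains were farther from 0. Klrc1 was at 7.3, 6.87 and 7.73 CPM against 16.0, 12.8 and 13.5 CPM (log2 fold change -0.95, SE 0.10, edgeR adjusted p = 1.1e-04). Klrc2 was at 4.42, 3.93 and 4.49 CPM against 10.7, 7.61 and 6.96 CPM (log2 fold change -0.97, SE 0.15, edgeR adjusted p = 0.0013). WT 1 was the highest library for all 3 genes, and each pair of groups was separate. Of the 50-base windows of Klrc1 and Klrc2 transcripts, 59.7% and 69.9% occur in no other gene, and of the 100-base windows 84.1% and 87.2%. Reads in the rest could be left out of the counts or, in principle, placed on the wrong copy. The levels of both genes are therefore uncertain.

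Klrk1, which encodes the activating receptor NKG2D, had 46.3, 47.2 and 47.5 CPM against 71.4, 63.1 and 58.2 CPM (log2 fold change -0.45, SE 0.07, edgeR adjusted p = 0.0017). Klri2, a partner of Klre1, stood at 40.3, 41.6 and 38.8 CPM against 56.5, 48.4 and 45.3 CPM, a smaller difference that did not overlap (log2 fold change -0.31, SE 0.08, edgeR adjusted p = 0.019). The call did not hold when TBK1-DKO replicate 1 or 3 was left out (edgeR adjusted p up to 0.072). Klrg1, an inhibitory receptor for cadherins that marks mature NK cells and effector T cells, was the exception. It had 5.48, 4.72 and 4.58 CPM against 4.9, 4.03 and 4.43 CPM, with overlapping groups (log2 fold change 0.15, SE 0.12, 95% interval -0.11 to 0.41, edgeR adjusted p = 0.41). Klrg1 lies outside the NK gene complex on the same chromosome.

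**Figure D2:**
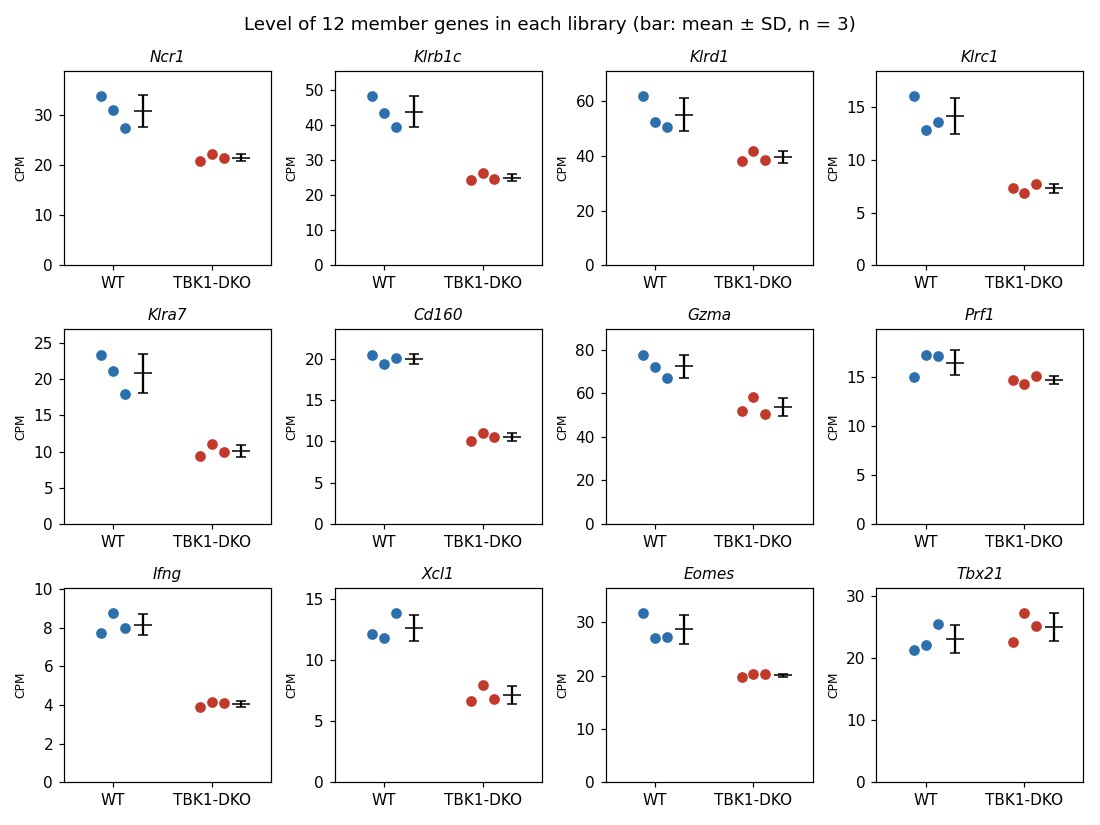
Level in CPM of 12 members in each library, WT beside TBK1-DKO, with a linear axis from 0 in each panel, points for libraries and black marks for the group mean ± SD (n = 3). Klrb1c, for example, lies between 24.2 and 26.3 CPM in the TBK1-DKO libraries and between 39.5 and 48.3 CPM in the WT libraries.

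The Ly49 receptors, lectin-like proteins that bind class I MHC molecules or related ligands, are encoded by the Klra genes at one end of the complex. All 4 that were tested fell, with a median log2 fold change of -0.83, and their summed level was 21.9 ± 1.39 CPM against 39.1 ± 4.99 CPM. Their transcripts resemble each other, as 60 aligned coding bases (coding positions 49 to 108 of GENCODE M21 transcripts, 5′ to 3′) show for all 6 members. Capitals mark bases that differ from Klra3.
Klra3: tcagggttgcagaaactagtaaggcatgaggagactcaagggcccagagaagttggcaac
Klra9: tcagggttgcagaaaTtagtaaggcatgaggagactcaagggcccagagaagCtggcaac
Klra1: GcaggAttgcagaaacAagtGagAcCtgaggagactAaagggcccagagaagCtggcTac
Klra7: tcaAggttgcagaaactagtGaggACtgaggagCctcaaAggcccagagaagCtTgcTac
Klra8: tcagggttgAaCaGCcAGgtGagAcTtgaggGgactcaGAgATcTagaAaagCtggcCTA
Klra4: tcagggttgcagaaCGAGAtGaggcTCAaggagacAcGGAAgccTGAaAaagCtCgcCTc

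In this window Klra9 differs from Klra3 at 2 bases and Klra4 at 22. Over the whole coding sequence Klra3 and Klra9 were 95.9% identical and Klra3 and Klra4, the least alike pair, 76.8%. Of the 50-base windows of the transcripts, 96.8% were unique to Klra1, 85.3% to Klra7, 78.5% to Klra3 and 67.6% to Klra9. By this measure the values of Klra3 and Klra9 are less certain than those of Klra1 and Klra7. Of the 100-base windows, 100% were unique to Klra1, 97.7% to Klra7, 98.1% to Klra3 and 95.6% to Klra9. At that length Klra3 was no less unique than Klra7, so the order depends on the length taken.

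Klra7, which encodes the inhibitory receptor Ly49G, had the highest level per transcript length of the 6 member Ly49 genes. It stood at 9.39, 11.04 and 9.93 CPM against 23.4, 21.1 and 18.0 CPM. Its groups did not overlap and the log2 fold change was -1.04 (SE 0.11, 95% interval -1.28 to -0.80, edgeR adjusted p = 8e-05). Klra1, which encodes Ly49A, was at 1.44, 1.54 and 1.38 CPM against 3.63, 2.72 and 2.71 CPM, from 62 to 114 reads per library, and had the most negative log2 fold change of the members, -1.05 (SE 0.16, edgeR adjusted p = 9.3e-04). Both genes were lower by at least a factor of 2 in the fitted value, as was Ifng among the remaining members.

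Klra3 and Klra9, which encode the inhibitory receptors Ly49C and Ly49I, had fold changes nearer to 0. Klra3 was at 5.08, 5.73 and 5.78 CPM against 8.4, 7.72 and 7.23 CPM (log2 fold change -0.49, SE 0.10, edgeR adjusted p = 0.0053). Klra9 was at 4.7, 5.07 and 4.75 CPM against 8.88, 7.05 and 6.42 CPM (log2 fold change -0.62, SE 0.13, edgeR adjusted p = 0.0054). In both genes all TBK1-DKO libraries were below all WT libraries. Klra4 and Klra8, which encode the activating receptors Ly49D and Ly49H, had 0 reads in each library, which allows up to 3 reads per library by counting error alone. The annotation used for counting is not known, and how it models these 2 genes was not checked, so the zeros do not show that either receptor was not expressed. For Klra8, 66.9% of the 50-base windows were unique, and for Klra4 95.3%.

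The lectin-like member receptors other than Klrg1 lie within a stretch of 1.61 Mb on chromosome 6 (chr6:128778485-130386874), the NK gene complex, which also holds genes that are no members. Of the 35 tested genes in this stretch, 20 fell and 1 rose. Among the 8 Klr genes there that are no members, 4 fell (Klrb1b, Klrc3, Klra17 and Klra14) and the others did not pass the test. Klrb1b, a receptor for the lectin-like ligand CLEC2D, had 8.15, 9.15 and 8.82 CPM against 20.6, 18.4 and 17.6 CPM (log2 fold change -1.11, SE 0.09, edgeR adjusted p = 1.6e-05). Klri1, the second partner of Klre1 beside Klri2, had overlapping groups at 24.3, 20.6 and 24.1 CPM against 24.9, 20.7 and 22.2 CPM (log2 fold change 0.03, edgeR adjusted p = 0.86). Of the 16 genes in the stretch that are not of the Klr family, 5 fell, 1 rose and the others did not pass. Among those that changed were Cd69, an activation marker of lymphocytes (log2 fold change -0.82), Clec9a, a receptor of type 1 conventional dendritic cells (-0.75), and Olr1, a scavenger receptor (1.13).

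**Figure D3:**
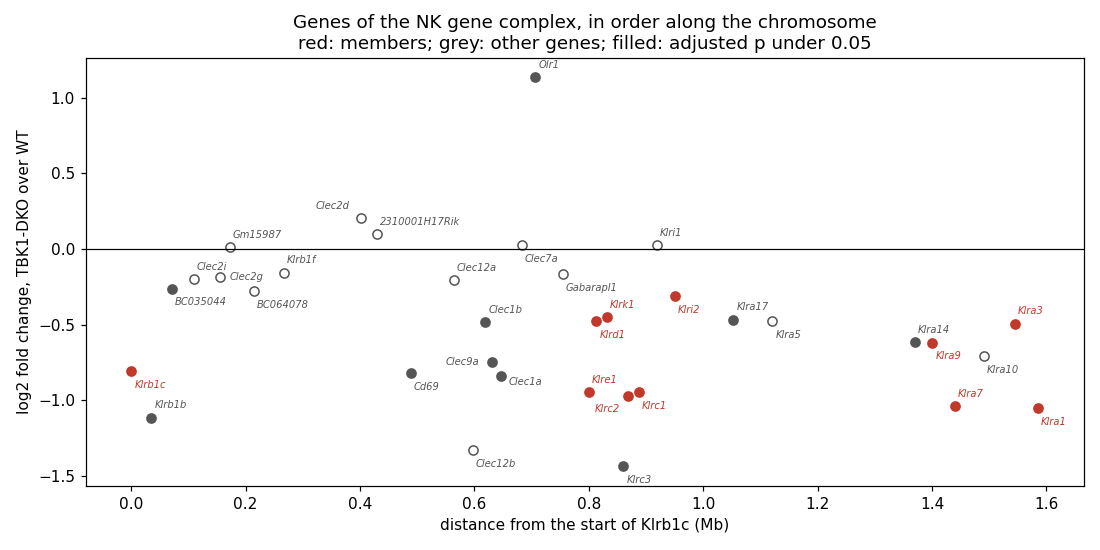
Log2 fold change (TBK1-DKO over WT) of the 35 tested genes of the NK gene complex against the distance of the gene from the start of Klrb1c in Mb, members in red, other genes in grey, filled where the edgeR adjusted p was under 0.05. The members lie between -1.05 and -0.31, and Olr1 at 1.13 is the 1 filled point above 0.

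All 3 receptors of the immunoglobulin type fell. Ncr1 (ENSMUSG00000062524.4, chr7:4337724-4345164, 6 exons) encodes NKp46, the activating receptor that with NK1.1 defines NK cells. It stood at 20.9, 22.2 and 21.5 CPM against 33.8, 31.1 and 27.5 CPM, without overlap (log2 fold change -0.51, SE 0.08, edgeR adjusted p = 0.0013). Cd160, a receptor for the TNF receptor family member HVEM, had 10.1, 10.98 and 10.5 CPM against 20.5, 19.4 and 20.1 CPM. The groups were far apart against the spread within them, with a log2 fold change of -0.93 (SE 0.07) and the smallest p-value of the members (edgeR adjusted p = 1.5e-05). Cd7, a receptor of T and NK cells, was the most abundant member per transcript length and had 111.7, 132 and 111.4 CPM against 147.5, 172 and 156 CPM (log2 fold change -0.42, SE 0.08, edgeR adjusted p = 0.0042). The annotated gene Gm11775 covers 12.4% of the exonic bases of Cd7.

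Of the 7 members encoding proteins of cytotoxic granules, 4 fell and 3 did not pass the test, with a median log2 fold change of -0.37. Gzma, a tryptase-like granzyme, had 51.9, 58.3 and 50.6 CPM against 77.7, 72.1 and 67.2 CPM (log2 fold change -0.43, SE 0.07, edgeR adjusted p = 0.0022). Gzmb, which cleaves after aspartate and activates caspases, had 9.86, 10.9 and 9.78 CPM against 14.3, 13.2 and 12.2 CPM (log2 fold change -0.37, SE 0.09, edgeR adjusted p = 0.012). In neither gene did the groups overlap. Prf1, which encodes the pore-forming perforin that lets granzymes into the target cell, was at 14.6, 14.3 and 15.04 CPM against 14.9, 17.2 and 17.1 CPM. WT 1 lay within the range of the TBK1-DKO libraries, and the log2 fold change of -0.17 (SE 0.08, 95% interval -0.34 to 0.01, edgeR adjusted p = 0.16) did not pass.

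Nkg7, a membrane protein of cytotoxic granules, had 43.5, 48.6 and 43.2 CPM against 51.1, 60.3 and 58.2 CPM (log2 fold change -0.33, SE 0.08, edgeR adjusted p = 0.012). Ctsw, a cathepsin of cytotoxic lymphocytes, had 23.1, 28.6 and 26.0 CPM against 32.5, 37.3 and 35.2 CPM (log2 fold change -0.43, SE 0.09, edgeR adjusted p = 0.0054). Both were without overlap. The Gzmb call did not hold with TBK1-DKO replicate 1 or 3 left out (edgeR adjusted p up to 0.053), and the Nkg7 call with TBK1-DKO replicate 3 or WT replicate 2 or 3 left out (up to 0.064).

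The 2 rarest granzymes had opposite signs. Gzmm, a granzyme enriched in NK cells, had 1.82, 1.6 and 1.67 CPM against 2.16, 2.3 and 2.29 CPM, 68 to 86 reads per library (log2 fold change -0.41, SE 0.13, edgeR adjusted p = 0.051). Gzmk, which is known mainly from T cell subsets and some NK cells, had 4.06, 3.49 and 3.75 CPM against 2.67, 3.3 and 2.53 CPM (log2 fold change 0.41, SE 0.13, edgeR adjusted p = 0.053). Neither passed the test over all genes, and both did with an unadjusted p of 0.012 and 0.013. Gzmk passed the adjusted test without TBK1-DKO replicate 2 or without WT replicate 2 (smallest edgeR adjusted p with 1 library left out 0.036).

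All 3 members for secreted or surface effectors fell, with a median log2 fold change of -0.82 and a summed level of 15.4 ± 0.82 CPM against 26.3 ± 0.94 CPM. Ifng (chr10:118441046-118445892), the main NK cytokine, had 3.87, 4.15 and 4.11 CPM against 7.7, 8.75 and 8.0 CPM. The libraries within each group lay close together, the groups did not overlap, and the log2 fold change was -1.01 (SE 0.10, 95% interval -1.23 to -0.80, edgeR adjusted p = 5.1e-05). Another annotated gene, Gm49751, covers 20.6% of its exonic bases, and whether the counting used strand is not known, so this share is uncertain.

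Xcl1, the chemokine whose receptor XCR1 marks type 1 conventional dendritic cells, had 6.68, 7.97 and 6.8 CPM against 12.2, 11.9 and 13.9 CPM (log2 fold change -0.82, SE 0.10, edgeR adjusted p = 2.6e-04). Fasl, the death ligand of cytotoxic cells, had 4.38, 4.26 and 4.09 CPM against 5.54, 5.69 and 5.41 CPM (log2 fold change -0.39, SE 0.09, edgeR adjusted p = 0.014). Groups did not overlap for either. Of the exonic bases of Xcl1, 18.7% lie in another annotated gene. The Fasl call did not hold when TBK1-DKO replicate 3 or WT replicate 2 was left out (edgeR adjusted p up to 0.06).

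The pair of T-box transcription factors that direct NK maturation gave different values. Eomes (chr9:118478212-118486132) had 19.7, 20.3 and 20.2 CPM against 31.7, 27.1 and 27.1 CPM and fell without overlap (log2 fold change -0.51, SE 0.08, edgeR adjusted p = 9.2e-04). Tbx21, which encodes T-bet and is also used by T cells and some dendritic cells, had 22.6, 27.2 and 25.1 CPM against 21.3, 22.2 and 25.6 CPM. Its groups overlapped and its log2 fold change was 0.12 (SE 0.09, 95% interval -0.09 to 0.33, edgeR adjusted p = 0.40). The difference between the fold changes of both genes was not tested.

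Among the cytokine receptors, 2 of 4 fell. Il2rb, the beta chain shared by the receptors for IL-2 and IL-15, had 105, 101 and 109 CPM against 159, 150.4 and 144 CPM, with the TBK1-DKO libraries well below the WT libraries (log2 fold change -0.53, SE 0.06, edgeR adjusted p = 1.6e-04). The chains of the IL-18 receptor differed in their values. Il18r1, the binding chain, had 25.8, 23.8 and 25.9 CPM against 36.5, 30.7 and 28.1 CPM (log2 fold change -0.34, SE 0.10, edgeR adjusted p = 0.027), a call that did not hold when replicate 1 or 3 of TBK1-DKO or replicate 1 or 2 of WT was left out (edgeR adjusted p up to 0.061). Il18rap, the accessory chain, had 23.7, 18.1 and 24.2 CPM against 27.1, 19.9 and 20.1 CPM, with overlap (log2 fold change -0.03, SE 0.14, edgeR adjusted p = 0.92). TBK1-DKO 2 was the lowest and WT 1 the highest library for Il18rap, and without both the log2 fold change was 0.24 (edgeR adjusted p = 0.00061).

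Il12rb2, the signalling chain of the IL-12 receptor, had 20.5, 17.3 and 20.6 CPM against 20.0, 15.9 and 15.4 CPM (log2 fold change 0.19, SE 0.11, edgeR adjusted p = 0.26). Its groups overlapped through WT 1 and TBK1-DKO 2. It passed the test as higher without WT replicate 1. Of its exonic bases 27.3% are shared with the overlapping gene Serbp1, so reads there would not have been counted or would not be specific.

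All 4 members for intracellular signalling fell. Txk, a Tec-family kinase of T and NK cells, had 14.3, 12.5 and 13.3 CPM against 25.1, 23.4 and 21.8 CPM (log2 fold change -0.81, SE 0.08, edgeR adjusted p = 7.3e-05). Samd3, a SAM-domain protein, had 7.79, 8.21 and 7.09 CPM against 13.3, 11.4 and 11.1 CPM (log2 fold change -0.63, SE 0.10, edgeR adjusted p = 0.0012). These 2 were separated by more than the range within either group.

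Sh2d1b1 encodes EAT-2, an adaptor of SLAM-family receptors in NK cells, and had 25.1, 27.1 and 24.5 CPM against 31.8, 29.9 and 30.1 CPM (log2 fold change -0.26, SE 0.07, edgeR adjusted p = 0.018). Sh2d2a encodes the T cell adaptor TSAd and had 35.5, 34.6 and 32.5 CPM against 41.1, 40.3 and 40.2 CPM (log2 fold change -0.24, SE 0.06, edgeR adjusted p = 0.014). These are the smallest falls of the members that passed. Neither call held with TBK1-DKO replicate 3 left out (edgeR adjusted p up to 0.081 and 0.075), nor that for Sh2d1b1 with TBK1-DKO replicate 1 left out.

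Per transcript length, which allows levels to be compared between genes, the members in the WT libraries ranged from 1.75 CPM per kb for Gzmm to 161 CPM per kb for Cd7. After Cd7 came Gzma at 72.6, Nkg7 at 64.2, Klrd1 at 59.8 and Il2rb at 36.1 CPM per kb. The defining markers Ncr1 and Klrb1c were at 20.6 and 16.7 CPM per kb in WT and at 14.4 and 9.54 CPM per kb under the TBK1-DKO label. Members with the most negative fold changes included both rare and more abundant ones, Klra1 at 1.81 and Klra7 at 18.9 CPM per kb in WT.

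Members did not all move by the same amount relative to each other. To compare them within a library, which removes the scaling between libraries, reads of each of the other 34 detected members were divided by the reads of Ncr1 in the same library. Since Ncr1 itself fell, most genes were higher on this scale, 76% of the 14387 other genes tested without overlap between groups, and 1.64% were lower without overlap. Of the 34 members, 11 were higher without overlap, 10 were lower and 13 overlapped. The tally depended on the gene divided by. Per read of Klrb1c, which fell more than Ncr1 in the fitted value, 25 of 34 members were higher without overlap (88.4% of all other genes tested), 2 were lower (0.751%) and 7 overlapped.

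The 10 members lower per read of Ncr1 were Klre1, Klrb1c, Klrc1, Klrc2, Klra1, Klra7, Ifng, Cd160, Txk and Xcl1. Per read of Ncr1, Klra7 had 0.449, 0.498 and 0.462 reads under the TBK1-DKO label against 0.692, 0.678 and 0.655 under WT, and Klrb1c had 1.16, 1.18 and 1.14 against 1.43, 1.4 and 1.44. Per read of Klrb1c, Klra1 and Klra7 were again lower without overlap, with Klra7 at 0.388, 0.421 and 0.404 against 0.484, 0.483 and 0.455, whereas Klre1, Klrc1, Klrc2, Ifng, Cd160, Txk and Xcl1 overlapped. Gzma, Klrd1, Il2rb and Eomes overlapped per read of Ncr1, as did Klra3 and Klra9. The 11 members higher per read of Ncr1 included Tbx21, at 1.08, 1.23 and 1.17 reads against 0.63, 0.714 and 0.931, and Gzmk, at 0.194, 0.157 and 0.175 against 0.0791, 0.106 and 0.0921. These ratios are a description without a test.

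**Figure D4:**
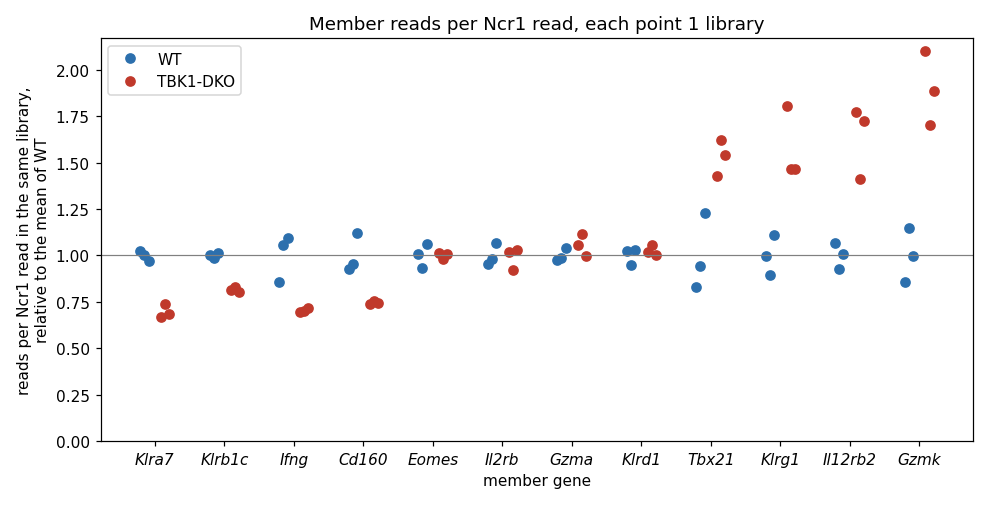
Reads of 12 members per read of Ncr1 in the same library, relative to the mean of the WT libraries, on a linear axis from 0, each point a library and WT beside TBK1-DKO. TBK1-DKO libraries of Klra7 lie at 0.449 to 0.498 reads per Ncr1 read against 0.655 to 0.692 in WT, whereas those of Tbx21 lie at 1.08 to 1.23 against 0.63 to 0.931.

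Other genes of NK biology moved in part with the members. Of 31 tested NK surface receptors outside the members, 13 fell and 2 rose (median log2 fold change -0.29), with 11 to 16 falling when 1 library was left out. Among those with the smallest p were Klrb1b (above), Fcgr3, an Fc receptor (log2 fold change -0.55), and Crtam, an adhesion molecule of activated lymphocytes (-0.79). Tigit, an inhibitory receptor, and Spn were the 2 that rose (0.58 and 0.19), and without WT replicate 2 or WT replicate 3 this count was 0. Of 19 NK signalling adaptors and kinases, 7 fell and the others did not pass (median -0.16), among them Fcer1g, the chain that couples Fc receptors and NKp46 (-0.67), Cd247, the zeta chain (-0.49) and Lck (-0.29). Without TBK1-DKO 2 and WT 1 together, 14 of these fell. Many of these genes are also used by T cells or myeloid cells.

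Transcription factors and granule machinery outside the members changed in both directions. Of 19 transcription factors of NK cells, 4 rose and 3 fell, among them Prdm1, which encodes BLIMP-1 (log2 fold change 0.69), Stat5a (0.33), Zbtb32 (0.52) and Ets1, a factor needed for NK development (-0.47). Prdm1 is also counted among the plasma cell markers below, of which 9 of 10 rose. The median of the 19 transcription factors was -0.12, and the balance of this list depended on the setting. By DESeq2 3 rose and 5 fell, as with upper-quartile factors, and the counts were 4 and 7 with the replicate block, 5 and 8 with length and GC offsets and 6 and 8 without TBK1-DKO 2 and WT 1 together. Those that fell numbered 6 without TBK1-DKO replicate 2 and 5 without TBK1-DKO replicate 3 or WT replicate 1. Of 13 tested genes listed with the granule machinery, not all of which act in granule formation or release, 3 rose and 2 fell. Those that rose were Rab27a, a GTPase of granule docking (0.35), Serpinb9 (0.205) and Serpinb6b (0.217). Those that fell were Ctsc, the protease that activates granzymes (-0.33), and Tnfsf10 (-0.47). The count that rose was 1 without TBK1-DKO replicate 1, TBK1-DKO replicate 3, WT replicate 2 or WT replicate 3. Of 9 NK chemokines and cytokines outside the members, Tnf rose (0.83), from 11.01, 13.02 and 10.8 CPM in WT to 20.4, 22.3 and 19.2 CPM, and 8 did not pass. Without WT replicate 1 the count that rose was 2, without TBK1-DKO replicate 2 the count that fell was 1, and without TBK1-DKO 2 and WT 1 together 2 rose and 4 fell.

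A list of 16 tested cytokines and ligands through which dendritic cells can act on NK cells holds more than activating ones, Clec2d and H2-T23 among them. Of the 16, 3 fell, 1 rose and 12 did not pass (median log2 fold change -0.03). Il18, whose receptor chains are described above, had 46.6, 55.3 and 46.2 CPM under the TBK1-DKO label against 73.7, 79.4 and 78.1 CPM (log2 fold change -0.64, SE 0.08, edgeR adjusted p = 2.1e-04). Cd48, a ligand of the NK receptor 2B4, and Il12a, a chain of IL-12, fell by 0.33 and 0.29 on the log2 scale. The 1 rise, of Tnfsf9 (0.49), did not hold with TBK1-DKO replicate 1 or WT replicate 1 or 2 left out.

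Markers of other cells moved between the groups as well, and their part in the members' fall was not tested. Of 18 T cell markers 8 fell and 1 rose (Ubash3a, log2 fold change 0.36; not called with replicate 1 or 3 of TBK1-DKO or replicate 2 or 3 of WT left out), with a summed level of 618.9 ± 4.52 CPM (613.7 to 622 per library) against 677.5 ± 5.74 CPM (672.7 to 683.9), a WT mean 1.1 times the TBK1-DKO mean. Cd3e, which NK cells lack at the surface and T cells carry, had 25.0, 24.2 and 24.4 CPM against 30.5, 33.7 and 33.6 CPM (log2 fold change -0.41). Transcripts of T cell markers were thus present in both groups, and T cells can also express many members. Which cells the Cd3e reads came from was not tested. Cd3d, Cd3g and Cd8b1 had log2 fold changes of -0.42, -0.40 and -0.40. The median over the 18 T cell markers was -0.20, against -0.45 over the tested members. Of the 18 markers 9 did not pass, among them Cd4 (-0.07) and Tcf7 (0.11), which stood at 166 and 100 CPM in WT. The T cell sum therefore depends on which genes it includes. Summed over the NK defining markers Ncr1 and Klrb1c, the WT mean was 1.6 times the TBK1-DKO mean, 74.6 ± 7.53 against 46.6 ± 1.7 CPM. Markers of innate lymphoid cells and of gamma-delta and innate-like T cells gave other counts. Of 9 tested innate lymphoid markers 3 rose and 2 fell (1 fell without TBK1-DKO replicate 1), and their sum was 316 ± 13.6 CPM against 284 ± 6.06 CPM. Kit (114 against 87.9 CPM) and Tmem176a (106 against 79.2 CPM), which rose, were the most abundant of them and dominate this sum. Il1rl1 also rose, and Il7r and Cxcr6 fell (log2 fold changes -0.29 and -0.55), so the sum does not describe the list as a whole. Of 6 gamma-delta and innate-like T cell markers 1 rose and 5 did not pass, with sums of 254 ± 4.06 and 252 ± 7.13 CPM. Blk alone stood at 237 and 236 CPM within these sums. Of 10 markers of type 2 conventional dendritic cells 2 rose and 2 fell (1 rose without WT replicate 2 or 3, 4 fell without TBK1-DKO replicate 2). Markers of B cells (5 of 10), plasmacytoid dendritic cells (9 of 10), type 1 conventional dendritic cells (8 of 10) and macrophages (10 of 11) fell. Those of neutrophils (10 of 11), plasma cells (9 of 10) and erythroid cells (6 of 6) rose. With TBK1-DKO 2 left out, 8 of the B cell markers fell. The sum of 8 pan dendritic cell markers was 9916 ± 718.7 CPM against 10290 ± 661.7 CPM with overlapping libraries.

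**Figure D5:**
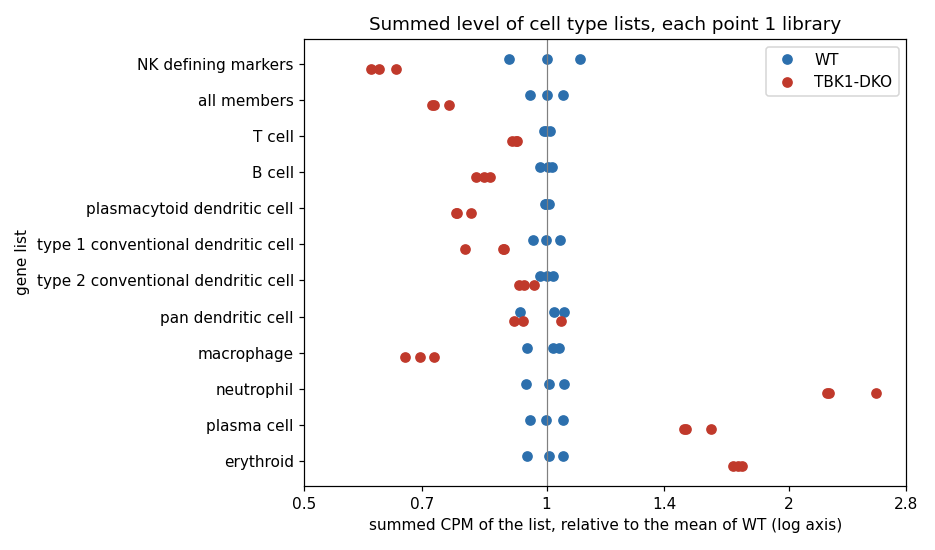
Summed CPM of each marker list in each library relative to the mean of the WT libraries on a log scale, points for libraries, with the NK members and markers of other cell types. The members' sum was lower under the TBK1-DKO label (821 against 1118 CPM) and the neutrophil sum was 2.35 times the WT mean. The T cell sum (618.9 against 677.5 CPM) includes the abundant genes Cd4 and Tcf7, which did not pass the test. The median log2 fold change of the 18 T cell markers was -0.20 (Cd3e, 1 of the 8 that fell, -0.41), against -0.45 for the tested members.

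WT 1 was the highest library for 23 of the 35 tested members, WT 2 for 7 and WT 3 for 1. Without WT replicate 1, 27 members fell and the median log2 fold change was -0.44. The 12 tested Klr members have a median GC content of 38.8% in their transcripts against 50.1% over all tested genes, and WT 1 differs most from the other WT libraries. With the trend of each library along transcript length and GC content removed, 30 members fell and 1 rose.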

How the data were processed

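The deposited files hold whole-number read counts per gene symbol, made by the authors with TopHat, TopHat2, HTSeq and the mm10 build, and DESeq2 is also named, per the submitters' processing notes. For versions, annotation and strand setting: not given in the sources used here. HTSeq does not count reads with several alignments or lying in more than 1 gene, which lowers counts of near-identical Klr genes. Records that name no gene (8.2% to 10.7% of all) were left out of library sizes and tests.

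Groups were taken from the genotype labels. Members, lists and tests were chosen with earlier results of these data known. Counts were tested with edgeR 4.0.16 in R 4.3.3 (filterByExpr with a minimum count of 10, TMM factors from 0.996 to 1.012, robust quasi-likelihood F test, no covariates). A gene was called at a Benjamini-Hochberg adjusted p under 0.05 over 14388 genes. Standard errors come from the F statistic, intervals are 95%. All members were named, and of each other list up to 4 genes with the smallest p and any needed to read a count. Values of some genes this rule gives are not reported here. The fit was tested on simulated counts.

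Positions, lengths and transcripts are from GENCODE M21 (GRCm38), in which 21777 symbols matched directly, 1260 through a synonym and 383 not at all. Lengths are those of the longest protein-coding transcript. Coding sequences were aligned with MAFFT 7.526, and promoters are from RefSeq. Alternatives were DESeq2 1.42.0, limma-voom (limma 3.58.1), other scaling factors and filters, non-robust dispersions, haemoglobin and immunoglobulin genes removed, length and GC offsets (99.1% of tested genes had both), a replicate block, a threshold of 0.01 and libraries left out.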

Additional observations from a re-analysis of the deposited data

Results flagged for a closer look

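Records kept out of the gene counts differed between groups. Those aligned to several places made up 6.66% ± 0.29 of records in the TBK1-DKO libraries and 5.63% ± 0.17 in the WT libraries (SD, n = 3), and those overlapping several genes 2.83% ± 0.14 and 2.32% ± 0.08. Neither pair of groups overlapped. Both shares concern data outside the gene counts and were picked out because they were above the level of the control libraries. How much of them came from the Klra, Klrc or Klrb1 copies was not tested.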

How the results depend on the processing

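Across 18 alternative settings, 21 to 30 members fell and the median log2 fold change of the tested members lay between -0.53 and -0.44. Of the 28 members called, 21 kept their call in every setting run. Klri2, Gzmb, Nkg7, Il18r1, Fasl, Sh2d1b1 and Sh2d2a lost it with some library left out and at a threshold of 0.01, at which 21 members fell. Of the 7 members not called, 5 passed under at least 1 setting (Gzmm, Gzmk, Prf1, Il12rb2 and Il18rap). The count of members that rose, 0 in the reported fit, was 1 with length and GC offsets, 3 without TBK1-DKO 2 and WT 1 together, and 0 to 1 with 1 library left out. Il18rap changed sign without TBK1-DKO 2 and WT 1, to 0.24. Over all genes, 1978 rose and 1424 fell; without TBK1-DKO 2 and WT 1 these were 3500 and 3397, at 0.01 1270 and 726, and with length and GC offsets 2476 fell. The cause of these shifts was not tested, other than the stricter threshold itself.

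With the replicate number as a replicate block, 28 members fell and 1 (Gzmk) rose. Deviations from the group means had correlations of 0.18, 0.15 and -0.07 between samples of one number. Between samples of different numbers they ran from -0.22 to 0.12. The labels do not say that equal numbers pair samples, and with 3 libraries per group these correlations cannot decide it. Read depth limits the rarest members, Klra1 and Gzmm (62 to 114 reads per library), but Klrc2 and Il18rap, with more reads, had SEs of 0.15 and 0.14.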
